A study of Homo sapiens with 18 samples.

Results

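The 10 genes described here are targets and core members of the YAP signaling pathway, read in all 18 RNA sequencing libraries of a study of PARP inhibitors in breast cancer cells. They were taken by name from the 58884 genes counted. Of the 10, 6 are target genes that encode secreted, nuclear or scaffold proteins or a receptor (CCN1, CCN2, ANKRD1, AMOTL2, AJUBA and AXL), 1 is a target that is also a kinase of the pathway (LATS2), and 3 are the transcription factors and coactivators themselves (YAP1, WWTR1 and TEAD1). All 10 passed the filter on low counts in every comparison.

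The cells were T47D, an estrogen receptor-positive breast cancer line of luminal type. The WT groups carry intact PARP1 and the cell line label T47D AAV, whereas the PARP1 KO groups carry the label T47D JL. Each genotype was exposed for 48 hours to DMSO (the vehicle), to niraparib at 10 μmol/L or to olaparib at 10 μmol/L, which gave 6 groups of 3 libraries. All groups thus share the T47D background and the exposure time. The knockout is represented by 1 cell line, so the loss of PARP1 and any other difference between the lines cannot be told apart. The labels number the libraries of a group and do not say whether they came from separate cultures, so the p-values measure the spread between these libraries. Niraparib and olaparib are both inhibitors of PARP1 and PARP2. The study reports that niraparib favors PARP1 and also binds lanosterol synthase, whereas olaparib binds PARP1 and PARP2 alike and not that enzyme. The comparison of the drugs in the presence and absence of PARP1 asks which transcript changes accompany each drug in either genotype.

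YAP (encoded by YAP1) and TAZ (encoded by WWTR1) are transcriptional coactivators that do not bind DNA themselves and act mostly through the TEAD factors. The Hippo kinases, ending in LATS1 and LATS2, phosphorylate YAP and TAZ and thereby hold them in the cytoplasm, and cell contact, cell shape and tension on the cytoskeleton feed into this switch. Several target genes encode inhibitors of the pathway and so form a negative feedback loop. In breast epithelium YAP and TAZ are best known from basal-like and mesenchymal cells, and luminal lines such as T47D usually show low levels of several of the targets.

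The TEAD factors recognize the hexamer GGAATG, and the AP-1 factors, which often share target regions with them, recognize TGANTCA. Both motifs were searched on both strands in the 250 bases before each annotated RefSeq start site (GRCh38.p14, while the deposited counts used the GRCh38 annotation of Ensembl release 96), including the reverse complement CATTCC of the hexamer. The RefSeq table held 12 start sites of 8 of the 10 genes. GGAATG occurred before 6 of these 12 start sites, in 6 genes, against 11.9% of all 35116 start sites in the table. TGANTCA occurred before 1 of them, in ANKRD1, against 6.57% of all start sites. A match describes the letters only and does not show that a factor was bound.

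The sequences below are those of CCN2, ANKRD1 and AXL, the genes called in a comparison below, followed by the single matches of YAP1, AJUBA and AMOTL2. The hexamer or its reverse complement is in capitals, and each is read 5′ to 3′ on the strand of the gene. CCN2 held 3 matches in the 250 bases before its start (chr6:131951373-131951622, minus strand). The ANKRD1 stretch (chr10:90921277-90921337, minus strand) is the part of its window that lies outside the annotated exons and holds 1 of its 2 matches. The first start site of AXL (chr19:41218973-41219222, plus strand) had none, while the second, internal start site had 1 on the opposite strand (chr19:41226533-41226558, within an intron).
CCN2: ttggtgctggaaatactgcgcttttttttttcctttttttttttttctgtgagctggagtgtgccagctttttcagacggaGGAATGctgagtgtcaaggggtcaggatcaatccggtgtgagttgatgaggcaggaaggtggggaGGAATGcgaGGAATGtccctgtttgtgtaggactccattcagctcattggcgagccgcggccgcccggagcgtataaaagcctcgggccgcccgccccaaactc
ANKRD1: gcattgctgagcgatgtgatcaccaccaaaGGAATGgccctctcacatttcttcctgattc
AXL, first start site: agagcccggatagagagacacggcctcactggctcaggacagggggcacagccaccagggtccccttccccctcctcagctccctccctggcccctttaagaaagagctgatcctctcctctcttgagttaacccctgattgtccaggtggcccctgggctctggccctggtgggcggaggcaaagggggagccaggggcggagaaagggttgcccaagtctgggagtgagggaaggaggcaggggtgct
AXL, second start site: gactttgcacCATTCCactccctccg
YAP1: ggagtgtgcaGGAATGtagcaacttg
AJUBA, second start site: gaagttggctGGAATGaagccaaagc
AMOTL2, second start site: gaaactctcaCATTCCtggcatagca

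The CCN2 matches began 169, 104 and 95 bases before the start site, and those of ANKRD1 220 and 128 bases before it, the second of them within an annotated exon. The TGANTCA match of ANKRD1 began 195 bases before the start and overlapped an annotated exon by 1 of its 7 bases. The YAP1 stretch lies at chr11:102110275-102110300 on the plus strand, and the AJUBA stretch lies at chr14:22976886-22976911 on the minus strand within an annotated exon. The AMOTL2 stretch lies at chr3:134374501-134374526 on the minus strand, with its match on the opposite strand, 69 bases before the start site and within an annotated exon.

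**Figure D1:**
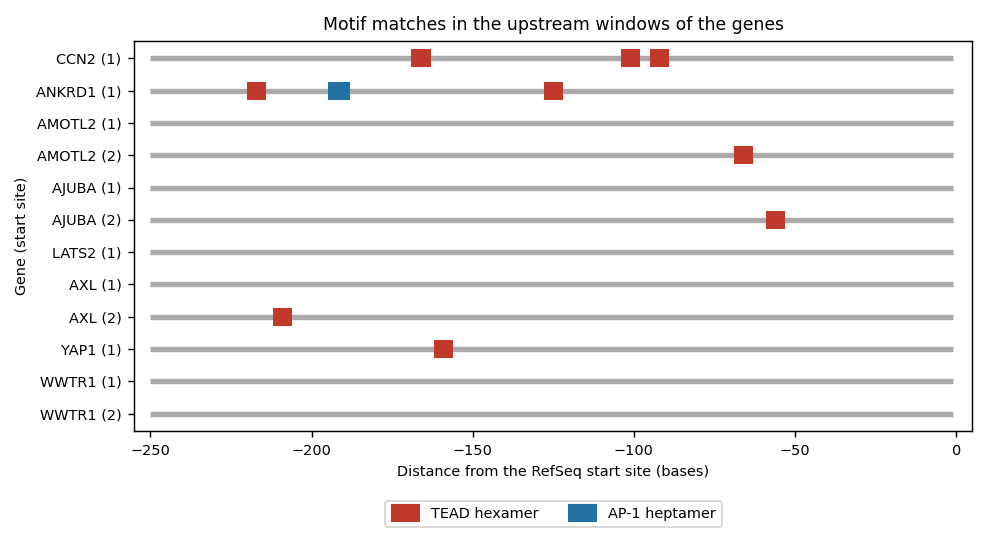
Positions of the TEAD hexamer (red) and the AP-1 heptamer (blue) in the 250 bases (grey lines) before each of the 12 RefSeq start sites, with the distance from the start site in bases on the horizontal axis and the number of the start site after each gene name. CCN2 has 3 hexamers, ANKRD1 has 2 hexamers and 1 heptamer, and 6 of the 12 start sites have no hexamer.

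The libraries held 28890837 to 52251288 counts assigned to genes. PARP1 itself stood at 291 to 373 CPM (counts divided by the library size after TMM scaling in edgeR) in the 9 WT libraries and at 22.9 to 27.6 CPM in the 9 PARP1 KO libraries, with no overlap. The luminal markers ESR1, PGR, GATA3, FOXA1, KRT8, KRT18, KRT19, CDH1 and XBP1 were detected in all groups, with a summed level of 10286 to 16605 CPM, against 1.43 to 5.30 CPM for the 4 basal markers KRT5, KRT14, KRT17 and TP63. In bulk RNA, fewer cells that express a gene and less RNA per cell cannot be told apart.

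Compared per exon length (RPKM, in WT cells with DMSO, mean ± SD of 3 libraries), the 10 genes covered a wide range of levels. CCN1 was the highest at 96.9 ± 9.67 RPKM. YAP1 (43.9 ± 1.39) and AMOTL2 (41.7 ± 2.93) followed, and their ranges overlapped. AJUBA stood at 15.6 ± 0.317 RPKM, apart from its neighbors on both sides. WWTR1 (10.4 ± 0.203), TEAD1 (9.497 ± 0.756), CCN2 (9.29 ± 2.10) and LATS2 (8.62 ± 0.186) formed a run in which each gene overlapped with the next. ANKRD1 (0.330 ± 0.0146) and AXL (0.230 ± 0.0327) were the lowest, and did not overlap. The same 8 genes stood above ANKRD1 and AXL in all 6 groups. With niraparib in WT cells ANKRD1 reached 2.11 ± 0.371 RPKM and AXL 1.04 ± 0.107 RPKM, still below LATS2 at 10.1 ± 0.232 RPKM.

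**Figure D2:**
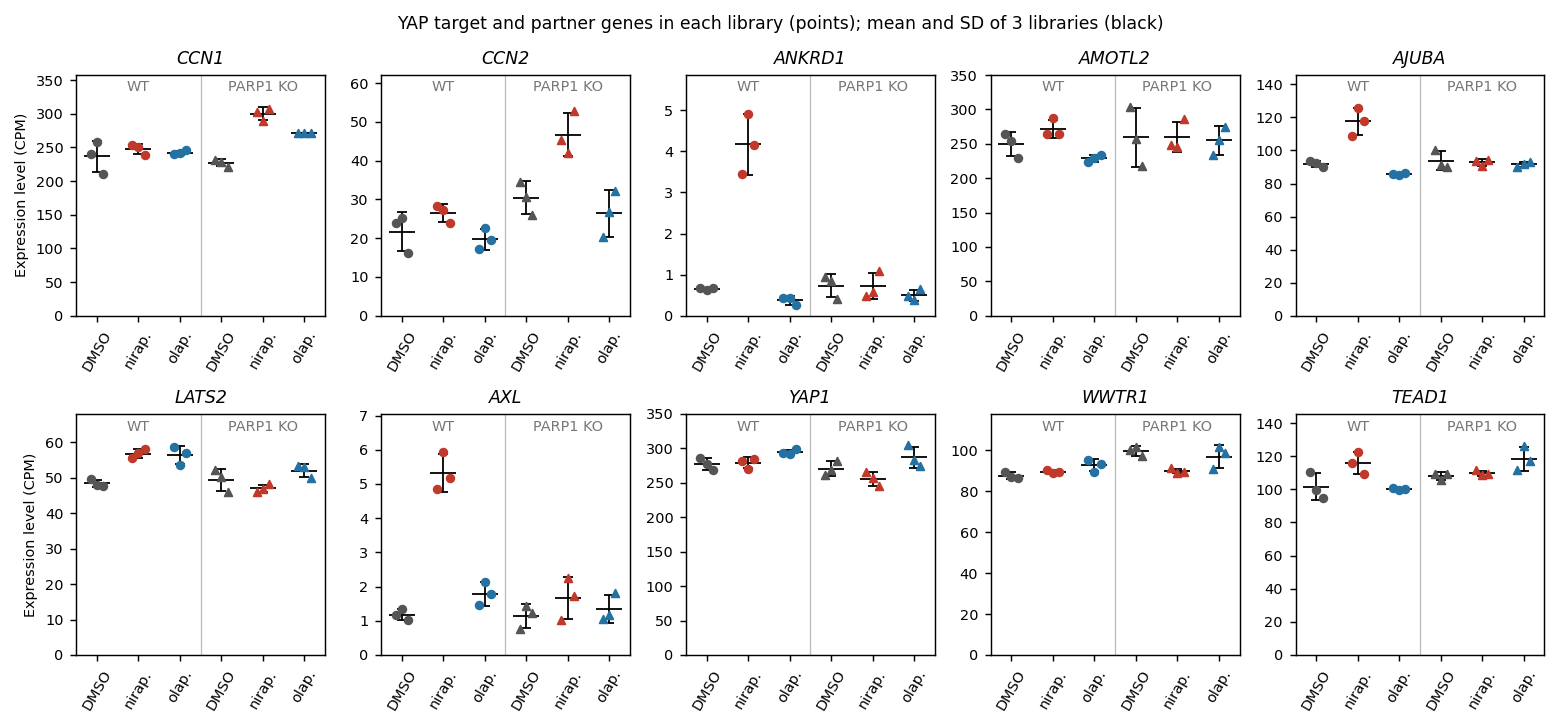
Expression level in CPM of the 10 genes in each of the 18 libraries (circles, WT; triangles, PARP1 KO; grey, DMSO; red, niraparib; blue, olaparib), with the mean and SD of the 3 libraries of a group in black and every axis starting at 0. ANKRD1 and AXL stand highest in the 3 niraparib-treated WT libraries, at 3.45 to 4.92 and 4.85 to 5.93 CPM, and CCN1 stands highest in the niraparib-treated PARP1 KO libraries, at 289.6 to 308 CPM.

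A gene is referred to as called where the quasi-likelihood test of edgeR gave an adjusted p below 0.05 over all genes tested and a change of more than 1.5-fold. In WT cells niraparib raised 2 of the 10 genes by this rule, ANKRD1 and AXL, while 13.8% of all genes tested were called and 8.1% were called higher. By adjusted p alone 5 of the 10 were higher (ANKRD1, AXL, AJUBA, LATS2 and TEAD1) and none was lower, against 38% of all genes, 19.9% higher. The median log2 fold change of the 10 genes was 0.21, compared with -0.02 for all genes. The 3 niraparib libraries lay above the 3 DMSO libraries for 4 of the 10 genes and below them for none, whereas 46.7% of all genes tested had groups that did not overlap. Olaparib against the same DMSO libraries gave 1 call among the 10, AXL, where 4.04% of all genes were called and 2.06% were called higher. By adjusted p alone it gave 2 (AXL and LATS2, both higher), where the share of all genes was 19%, 11.2% higher. The median of the 10 genes with olaparib was 0.01 and that of all genes -0.02. Since both drugs were compared with the same DMSO libraries, their values are given side by side.

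Among PARP1 KO libraries none of the 10 genes was called with niraparib, where 0.0136% of all genes tested (3 genes) were called, and none with olaparib, where 0.803% were called. At an unadjusted p below 0.05 there were 3 of the 10 with niraparib, against 9.14% of all genes, and 2 with olaparib, against 21.1%. DESeq2 called none of the 10 in either comparison. By adjusted p alone CCN1 was higher with each drug, against 0.109% of all genes (0.059% higher) with niraparib and 8.29% (4.42% higher) with olaparib. The median log2 fold changes of the 10 genes were 0.02 with niraparib and 0.02 with olaparib, and those of all genes were 0.01 and 0.01.

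**Figure D3:**
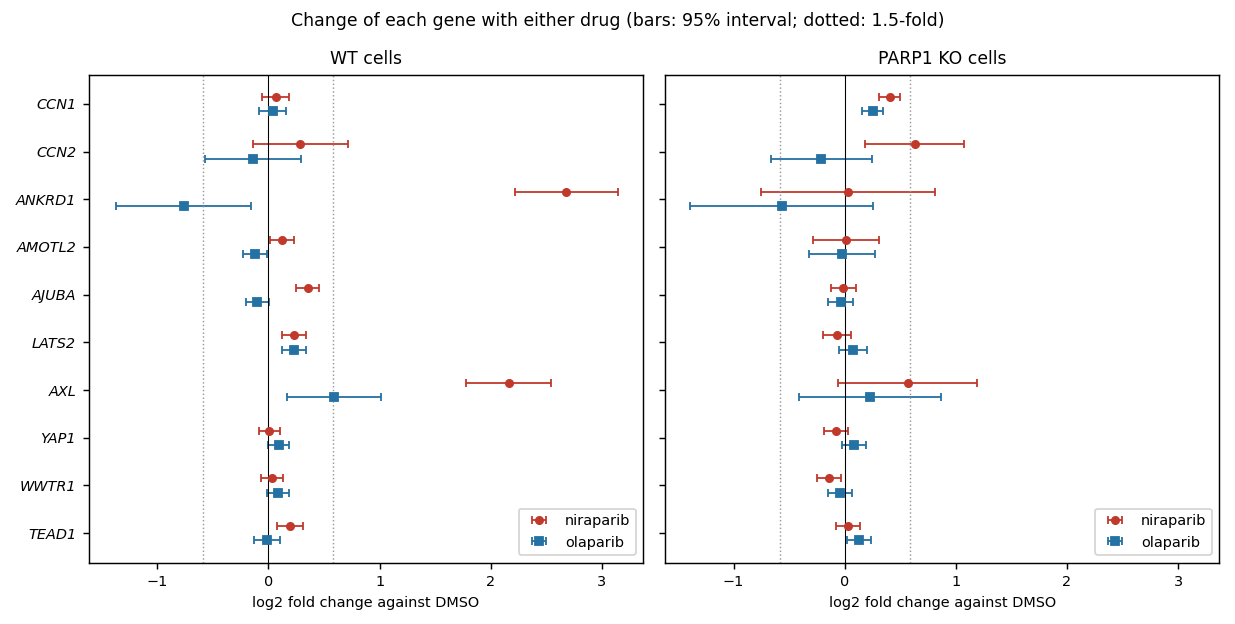
Log2 fold change against DMSO of each of the 10 genes with niraparib (red circles) and olaparib (blue squares) in WT cells (left) and PARP1 KO cells (right), with 95% intervals of the edgeR fit as bars and dotted lines at a 1.5-fold change. ANKRD1 at 2.68 and AXL at 2.16 stand apart on the left with niraparib, and no value on the right exceeds 0.63.

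Among the secreted products, CCN1 (ENSG00000142871, chr1:85580761-85583950) encodes a matricellular protein that binds integrins and is one of the most widely used readouts of YAP activity. In WT cells it stood at 241, 258 and 211 CPM with DMSO, at 254, 249.97 and 239 CPM with niraparib, and at 240.2, 241 and 246 CPM with olaparib. The 3 groups overlapped, and the log2 fold changes were 0.06 (95% interval -0.06 to 0.19) with niraparib and 0.04 (-0.09 to 0.16) with olaparib, neither of which passed the test. In PARP1 KO cells it stood at 232, 228 and 222 CPM with DMSO, at 303, 289.6 and 308 CPM with niraparib, and at 271 CPM in each library with olaparib. Here the 3 groups did not overlap, with niraparib highest and DMSO lowest. CCN1 rose by 0.41 ± 0.05 (log2, SE) with niraparib (edgeR, adjusted p = 7.3e-05) and by 0.25 ± 0.05 with olaparib (adjusted p = 0.0015), both below a 1.5-fold change. The niraparib change in PARP1 KO cells exceeded that in WT cells by 0.34 ± 0.07 (interaction test, adjusted p = 0.00060), and the corresponding difference for olaparib, 0.22 ± 0.07, did not pass the test (adjusted p = 0.11). Niraparib and olaparib differed by 0.15 ± 0.05 in PARP1 KO cells (adjusted p = 0.033), a call by adjusted p that was lost in 8 of 12 alternative settings, where the adjusted p ran up to 0.098.

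CCN2 (ENSG00000118523, chr6:131948176-131951372), also known as connective tissue growth factor, is the close relative of CCN1 that promotes matrix production. Its level in WT cells was 23.8, 25.2 and 16.1 CPM with DMSO, at 28.3, 27.3 and 23.96 CPM with niraparib and at 17.2, 22.6 and 19.4 CPM with olaparib. The niraparib libraries lay above the olaparib libraries, and both overlapped with DMSO. The PARP1 KO libraries held it at 34.6, 30.5 and 26.05 CPM with DMSO, at 45.4, 42.0 and 52.7 CPM with niraparib and at 20.2, 26.9 and 32.1 CPM with olaparib. The niraparib libraries lay above all others, and DMSO and olaparib overlapped. The log2 difference between niraparib and DMSO in PARP1 KO cells was 0.63 ± 0.19 and did not pass the test (edgeR, adjusted p = 0.39). Niraparib was higher than olaparib in PARP1 KO cells by 0.84 ± 0.19 (adjusted p = 0.037), the only call among the 10 genes in that comparison, where 1.07% of all genes were called and 0.622% were called higher. By adjusted p alone 3 of the 10 differed there (CCN1 and CCN2 higher, YAP1 lower), against 10% of all genes. The CCN2 call was lost under the replicate block (adjusted p = 0.098) and on leaving out olaparib replicate 2 or any 1 of the 3 niraparib replicates of the PARP1 KO cells, with log2 differences of 0.74 to 0.91 and adjusted p up to 0.11. The interaction for niraparib, 0.33 ± 0.27, did not pass the test (adjusted p = 0.46).

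ANKRD1 (ENSG00000148677, chr10:90912096-90921276) encodes an ankyrin repeat protein of the sarcomere and nucleus that acts as a transcriptional cofactor. It was among the least abundant of the 10 genes. In WT cells it stood at 0.667, 0.620 and 0.673 CPM with DMSO, at 3.45, 4.92 and 4.15 CPM with niraparib and at 0.441, 0.433 and 0.254 CPM with olaparib. The niraparib libraries lay far above DMSO, and the olaparib libraries lay below it. The counts behind these levels were small, from 20 to 32 reads per library with DMSO, 116 to 273 with niraparib and 8 to 17 with olaparib. ANKRD1 rose 6.41-fold with niraparib in WT cells (log2 2.68 ± 0.22, edgeR, adjusted p = 2.9e-09). The difference between olaparib and DMSO, -0.76 ± 0.29, did not pass the test (adjusted p = 0.074). Niraparib thus exceeded olaparib by 3.44 ± 0.25 (adjusted p = 6.3e-10), the largest difference of any of the 10 genes in the 9 comparisons.

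In PARP1 KO cells ANKRD1 stood at 0.931, 0.849 and 0.408 CPM with DMSO, at 0.491, 0.584 and 1.09 CPM with niraparib and at 0.468, 0.374 and 0.647 CPM with olaparib. All 3 groups overlapped. The log2 fold change with niraparib was 0.03 ± 0.38, with a 95% interval of -0.75 to 0.81, and that with olaparib was -0.57 ± 0.40. The niraparib change was smaller than in WT cells by 2.64 ± 0.42 on the log2 scale (interaction -2.64, adjusted p = 8.5e-06). Over the alternative settings this interaction ran from -3.10 to -2.41, with an adjusted p of at most 0.00017. With DMSO the genotypes did not pass the test (0.15 ± 0.32).

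AXL (ENSG00000167601, chr19:41219223-41261766) encodes the receptor tyrosine kinase for the ligand GAS6 and is associated with mesenchymal and drug-tolerant tumor cells. The WT libraries held it at 1.17, 1.36 and 1.02 CPM with DMSO, at 4.85, 5.93 and 5.18 CPM with niraparib and at 1.45, 2.14 and 1.78 CPM with olaparib. The 3 groups did not overlap, and olaparib lay between the others. AXL rose 4.47-fold with niraparib (log2 2.16 ± 0.19, edgeR, adjusted p = 4.6e-09). With olaparib it rose 1.504-fold (0.59 ± 0.20, adjusted p = 0.045), at the edge of both thresholds. This call was lost in 9 of 12 alternative settings. Leaving out WT olaparib replicate 2 or 3, or WT DMSO replicate 1 or 3, gave log2 changes of 0.44 to 0.59 and adjusted p up to 0.21. Niraparib exceeded olaparib by 1.57 ± 0.18 (adjusted p = 4.8e-07), and ANKRD1 and AXL were the 2 of the 10 genes called in this comparison, where 8.95% of all genes were called and 5.62% were called higher with niraparib. By adjusted p alone 5 of the 10 were higher with niraparib than with olaparib (ANKRD1, AXL, AMOTL2, AJUBA and TEAD1), against 32.2% of all genes, 16.1% higher.

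The PARP1 KO libraries showed AXL at 0.767, 1.44 and 1.22 CPM with DMSO, at 1.02, 2.25 and 1.73 CPM with niraparib and at 1.07, 1.17 and 1.81 CPM with olaparib. The groups overlapped throughout. The log2 fold change with niraparib was 0.57 ± 0.30 (95% interval -0.06 to 1.19, adjusted p = 0.60), so that a rise of more than 2-fold was within the interval. The niraparib change was lower than in WT cells by 1.60 ± 0.35 (interaction -1.60, adjusted p = 0.00062), and the interaction ran from -1.86 to -1.36 over the alternative settings. ANKRD1 and AXL were the 2 genes of the 10 called in the niraparib interaction, both lower in PARP1 KO cells, where 8.88% of all genes were called and 5.2% were called lower. By adjusted p alone 5 of the 10 differed (ANKRD1, AXL, AJUBA and LATS2 lower, CCN1 higher), against 22.9% of all genes. None of the 10 was called in the olaparib interaction, where 0.657% of all genes were called. In that interaction 1 of the 10 had an unadjusted p below 0.05, against 15.7% of all genes, and DESeq2 called none.

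Markers of other cell states moved in the same libraries. The summed level of the 9 luminal markers was 14277 to 15008 CPM in WT cells with DMSO and 10286 to 11442 CPM with niraparib, and 8 of the 9 were lower by adjusted p, against 18.1% of all genes. Among them were the called genes PGR (log2 -0.88) and GATA3 (-0.74), where 13.8% of all genes were called in either direction. With olaparib the luminal sum was 11247 to 11762 CPM, and 8 of the 9 were likewise lower by adjusted p, against 7.77% of all genes. Of these 1 was called, where 4.04% of all genes were called in either direction. In PARP1 KO cells none of the 9 was lower by adjusted p in edgeR's test with niraparib, against 0.0499% of all genes, and 4 (44.4%) had an unadjusted p below 0.05, against 9.14%. With olaparib 5 of the 9 were lower there by adjusted p, against 3.87% of all genes. The 4 basal markers summed to 1.43 to 1.84 CPM with DMSO, 4.46 to 5.30 CPM with niraparib and 1.46 to 2.17 CPM with olaparib in WT cells, and to 1.46 to 2.38 CPM in the PARP1 KO groups. KRT5 and KRT14 had at most 6 counts in any library, KRT14 had none in the DMSO and olaparib groups of PARP1 KO cells, and KRT5 had none in the niraparib and olaparib groups of those cells. The 2 basal markers that could be tested both rose with niraparib in WT cells, the keratin KRT17 by 4.27 ± 0.41 and TP63 by 0.78 ± 0.20, where 13.8% of all genes were called and 8.1% were called higher. KRT17 stood at 0.0333 to 0.174 CPM with DMSO and at 2.08 to 2.94 CPM with niraparib there, so its fold change is taken from a level near the floor. The 8 mesenchymal markers summed to 143 to 166 CPM with DMSO and 162 to 197 CPM with niraparib in WT cells. Nearly all of this sum was COL1A1 (mean 112 CPM with DMSO) and FN1 (39.0 CPM). The highest value of any other mesenchymal marker in a library was 0.852 CPM (COL1A2). With niraparib none of the 8 was called by edgeR, while 1 had an unadjusted p below 0.05 and was higher by adjusted p, against 19.9% of all genes. With olaparib in WT cells the mesenchymal sum was 148 to 159 CPM, and 1 of the 8 was higher by adjusted p, against 11.2% of all genes. In PARP1 KO cells the luminal sum was 15931 to 16605 CPM with DMSO and 14745 to 15006 CPM with niraparib, and the mesenchymal sum was 129.97 to 146 CPM and 139.6 to 172 CPM. Olaparib gave a mesenchymal sum of 148 to 170 CPM there, and 1 of the 7 tested was higher by adjusted p, against 4.42% of all genes. The part of these shifts in the ANKRD1 and AXL values was not tested.

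Of the targets that act as inhibitors of the pathway, AMOTL2 (ENSG00000114019, chr3:134355874-134375479), a motin that binds YAP and keeps it out of the nucleus, was abundant in all groups. In WT cells it stood at 264, 254 and 230.0 CPM with DMSO, at 265, 287 and 264 CPM with niraparib and at 224, 229 and 234 CPM with olaparib. The niraparib libraries lay above the olaparib libraries, a difference of 0.24 ± 0.05 (edgeR, adjusted p = 0.00094, and 0.092 in 1 fit of all 18 libraries). Against DMSO neither niraparib (0.12 ± 0.05, adjusted p = 0.071) nor olaparib (-0.12 ± 0.05, adjusted p = 0.13) passed the test. The PARP1 KO libraries spread from 218 to 303 CPM with overlapping groups, and the log2 differences there were 0.01 with niraparib (95% interval -0.29 to 0.31) and -0.02 with olaparib (-0.32 to 0.27).

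AJUBA (ENSG00000129474, chr14:22971177-22982551) encodes a LIM-domain scaffold of cell junctions that binds the LATS kinases. Its WT levels were 93.6, 92.6 and 90.0 CPM with DMSO, at 109, 126 and 118 CPM with niraparib and at 85.9, 84.9 and 86.4 CPM with olaparib. None of the 3 groups overlapped. AJUBA rose by 0.35 ± 0.05 with niraparib (edgeR, adjusted p = 6.8e-06), less than 1.5-fold, and the difference between olaparib and DMSO, -0.10 ± 0.05, did not pass the test (adjusted p = 0.20). Its PARP1 KO levels were 90.2 to 101 CPM with DMSO, 90.3 to 94.5 CPM with niraparib and 89.8 to 93.3 CPM with olaparib. The niraparib change there was -0.01 ± 0.05, with an interval of -0.12 to 0.10, and the interaction was -0.37 ± 0.07 (adjusted p = 0.00020).

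LATS2 (ENSG00000150457, chr13:20973036-21061586) encodes the kinase that phosphorylates YAP and TAZ and is itself induced by them. WT cells held it at 49.6, 48.1 and 47.6 CPM with DMSO, at 55.4, 57.0 and 58.0 CPM with niraparib and at 58.6, 53.7 and 57.1 CPM with olaparib. Both drugs lay above DMSO without overlap, and they overlapped with each other. LATS2 rose by 0.23 ± 0.05 with niraparib (edgeR, adjusted p = 0.0010) and by 0.23 ± 0.05 with olaparib (adjusted p = 0.0035), and the drugs differed by 0.00 ± 0.05, with a 95% interval of -0.10 to 0.11. PARP1 KO cells held it at 46.1 to 52.1 CPM with DMSO, 46.0 to 48.2 CPM with niraparib and 49.8 to 53.2 CPM with olaparib. Neither change there passed the test (-0.07 ± 0.06 and 0.07 ± 0.06). The interaction was -0.30 ± 0.08 for niraparib (adjusted p = 0.0036) and -0.15 ± 0.08 for olaparib (adjusted p = 0.35).

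Neither the coactivators nor their DNA-binding partner TEAD1 were called in any of the 9 comparisons. YAP1 (ENSG00000137693, chr11:102110447-102233424) stood at 269 to 286 CPM with DMSO, 270.0 to 285 CPM with niraparib and 291 to 298 CPM with olaparib in WT cells. The log2 fold changes were 0.01 (95% interval -0.09 to 0.10) and 0.09 (-0.003 to 0.18), and neither passed the test. The PARP1 KO libraries had YAP1 at 262 to 282 CPM with DMSO, 245 to 265 CPM with niraparib and 274 to 304 CPM with olaparib. Niraparib lay below olaparib there by 0.16 ± 0.05 (-0.16, edgeR, adjusted p = 0.047), which was lost in 6 of 12 alternative settings, among them leaving out any 1 of the PARP1 KO niraparib libraries or olaparib replicate 1 or 2 (adjusted p up to 0.20). WWTR1 (ENSG00000018408, chr3:149517235-149736714) stood at 86.1 to 89.4 CPM with DMSO, 89.0 to 90.3 CPM with niraparib and 89.3 to 95.2 CPM with olaparib in WT cells. In PARP1 KO cells it stood at 96.9 to 102, 88.9 to 91.1 and 90.6 to 101 CPM. Niraparib lay below DMSO there without overlap (-0.14 ± 0.05, edgeR, adjusted p = 0.39), and no drug comparison of WWTR1 passed the test. Its niraparib interaction was -0.18 ± 0.07 (adjusted p = 0.055), with an adjusted p below 0.05 in 6 of 18 alternative settings.

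WWTR1 was the only one of the 10 genes past the adjusted p between the genotypes with DMSO, where 1.39% of all genes were past it and 0.811% were higher. It stood at 89.4, 86.8 and 86.1 CPM in WT and at 100.1, 102 and 96.9 CPM in PARP1 KO libraries. The groups did not overlap, and the difference was 0.19 ± 0.05 (edgeR, adjusted p = 0.045). It was lost in 9 of 12 alternative settings, including leaving out any 1 of the 6 libraries, with adjusted p up to 0.18. By the full rule none of the 10 genes was called in this comparison, where 0.146% of all genes were called. There were 2 with an unadjusted p below 0.05, WWTR1 and CCN2 (0.48 ± 0.20, adjusted p = 0.30), against 13.6% of all genes, and DESeq2 called none.

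TEAD1 (ENSG00000187079, chr11:12674421-12944737), the DNA-binding partner, stood at 111, 99.4 and 94.9 CPM with DMSO, at 116, 123 and 109 CPM with niraparib and at 101, 99.7 and 100.5 CPM with olaparib in WT cells. Niraparib overlapped with DMSO and lay above olaparib. TEAD1 rose by 0.19 ± 0.06 with niraparib (edgeR, adjusted p = 0.0091), and without WT DMSO replicate 3 the change was 0.14 (adjusted p = 0.079). It was higher with niraparib than with olaparib by 0.21 ± 0.06 (adjusted p = 0.0064). With PARP1 lost TEAD1 stood at 105 to 109.5 CPM with DMSO, 108 to 112 CPM with niraparib and 111 to 126 CPM with olaparib, and no comparison passed the test. The olaparib libraries lay above DMSO there without overlap (0.13 ± 0.05, edgeR, adjusted p = 0.13). The niraparib interaction, -0.17 ± 0.08, did not pass the test either (adjusted p = 0.12).

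The wider pathway was examined with 3 lists of genes. Of 16 other YAP and TAZ target genes, 14 could be tested, and niraparib in WT cells raised 3 and lowered 1, where 13.8% of all genes were called and 8.1% were called higher. Of the 14, 5 were higher and 4 lower by adjusted p alone, against 19.9% and 18.1% of all genes. GADD45A, which encodes a stress-induced growth arrest protein, went from 9.61 ± 1.69 CPM with DMSO to 25.3 ± 0.630 CPM with niraparib (log2 1.41 ± 0.09, edgeR, adjusted p = 9.1e-11). F3, the tissue factor that starts blood coagulation, went from 1.07 ± 0.0955 to 2.55 ± 0.349 CPM (1.24 ± 0.20, adjusted p = 3.7e-05). TGFB2, which encodes a TGF-β ligand, went from 5.07 ± 0.141 to 11.3 ± 1.32 CPM (1.16 ± 0.12, adjusted p = 5.0e-08), although 22.7% of its exon bases are shared with TGFB2-OT1, so that its count is uncertain. NUAK2, a kinase that promotes YAP activity, fell from 7.33 ± 0.407 to 4.68 ± 0.572 CPM (-0.64 ± 0.13, adjusted p = 0.00053), and without WT niraparib replicate 3 the change was -0.55, below 1.5-fold. The median of the 14 was 0.08.

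Among these other targets olaparib raised 1 in WT cells, GADD45A, to 22.3 ± 1.02 CPM (1.23 ± 0.09, adjusted p = 8.7e-09), where 4.04% of all genes were called and 2.06% were called higher. The adjusted p alone gave 2 of the 14 higher and 4 lower with olaparib, against 11.2% and 7.77% of all genes. Niraparib exceeded olaparib in WT cells for F3 (0.72) and TGFB2 (1.63), 2 of the 14 against 5.62% of all genes called higher. In PARP1 KO cells niraparib changed none of the 14 by edgeR, where 0.0136% of all genes were called, and none of them had an unadjusted p below 0.05. Olaparib called 1 of the 14 there, against 0.803% of all genes, and raised GADD45A by 0.66, which became 0.47, below 1.5-fold, without PARP1 KO olaparib replicate 1. TGFB2, again 1 of the 14 (0.622% of all genes were called higher), was higher there with niraparib than with olaparib by 0.59, which became 0.55, also below 1.5-fold, without PARP1 KO olaparib replicate 3. With DMSO it was higher in PARP1 KO than in WT cells by 0.72, the only call of the 14 where 0.146% of all genes were called. The niraparib interaction was called lower for 4 of the 14, GADD45A (-1.33), F3 (-1.19), TGFB2 (-1.05) and ASAP1 (-0.59), the last a regulator of ARF GTPases that stood at 61.0 ± 2.23 CPM with DMSO and 91.3 ± 6.68 CPM with niraparib in WT cells. Over all genes 8.88% were called in that interaction and 5.2% were called lower. The ASAP1 interaction lay below 1.5-fold in 9 of 18 alternative settings (-0.58 to -0.54, adjusted p of at most 7.7e-06), among them leaving out PARP1 KO niraparib replicate 2, PARP1 KO DMSO replicate 1 or 2, WT niraparib replicate 2, or WT DMSO replicate 2 or 3.

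Of 8 other TEAD factors and proteins that bind YAP or TEAD, niraparib raised 2 in WT cells, both motins like AMOTL2, where 13.8% of all genes were called and 8.1% were called higher. The adjusted p alone gave 4 of the 8 higher and 1 lower, against 19.9% and 18.1% of all genes. Olaparib in WT cells called none of the 8 by edgeR, where 4.04% of all genes were called. With olaparib 5 had an unadjusted p below 0.05 and 4 were higher by adjusted p, against 30.2% and 11.2% of all genes. AMOT went from 4.96 ± 0.175 to 8.58 ± 0.681 CPM (0.79 ± 0.12, edgeR, adjusted p = 2.3e-05) and AMOTL1 from 27.2 ± 2.22 to 47.5 ± 1.74 CPM (0.80 ± 0.07, adjusted p = 2.7e-09). Both had a lower niraparib change in PARP1 KO cells (-0.80 and -0.67), and in that interaction 5.2% of all genes were called lower. AMOT was also called in the olaparib interaction (-0.62 ± 0.17, adjusted p = 0.040), where 0.657% of all genes were called, a call that was lost in 12 of 18 alternative settings, with an adjusted p up to 0.11. The replicate block ended it, as did leaving out any 1 of the libraries compared other than WT olaparib replicate 2. Of the 12 genes of the Hippo kinase core and its upstream regulators none was called in any of the 9 comparisons, and with niraparib in WT cells 7 had an unadjusted p below 0.05, against 44.8% of all genes, and 4 passed the adjusted p alone, 3 higher and 1 lower, against 38%. With olaparib 5 of the 12 were higher by adjusted p in WT cells, against 11.2% of all genes, and 3 in PARP1 KO cells, against 4.42%. For niraparib against olaparib in PARP1 KO cells 5 of the 12 were lower by adjusted p, against 5.73% of all genes, and 8 had an unadjusted p below 0.05, against 22.1%.

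**Figure D4:**
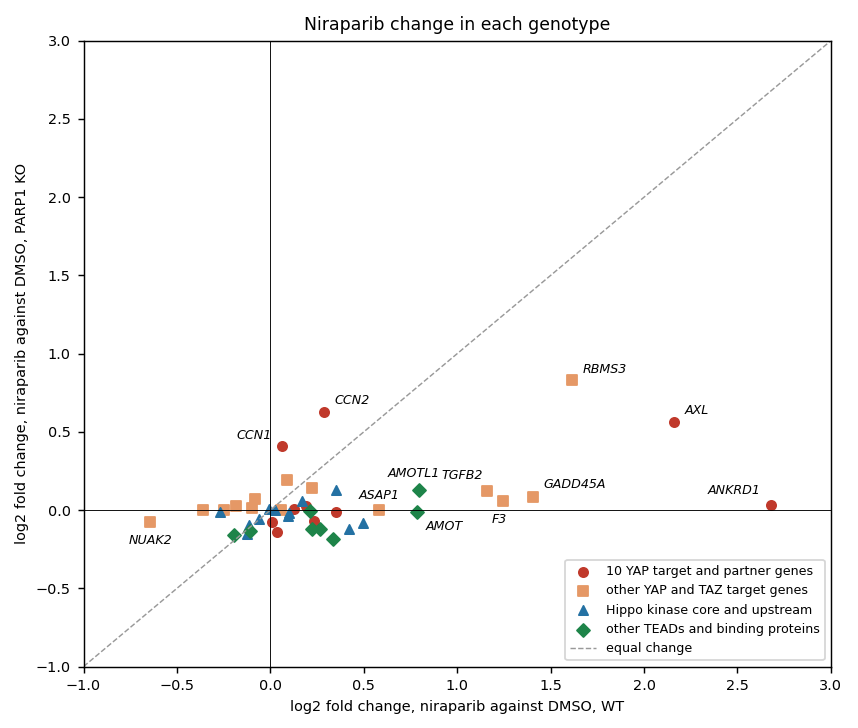
Log2 fold change with niraparib against DMSO in WT cells (horizontal) and in PARP1 KO cells (vertical) for the 10 genes (red circles), other YAP and TAZ targets (orange squares), Hippo core genes (blue triangles) and other TEAD factors and binding proteins (green diamonds), with a dashed line where both changes are equal. ANKRD1, AXL, GADD45A, F3, TGFB2, AMOT and AMOTL1 lie below the line, CCN1 at 0.06 and 0.41 lies above it, and the point at 1.62 and 0.83 is RBMS3, which did not pass the test in either genotype.

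Over the 18 libraries the 10 genes did not share 1 pattern. The log2 CPM of ANKRD1 followed that of AJUBA (Pearson's r = 0.95) and AXL (r = 0.84), and AJUBA followed AXL (r = 0.75). CCN1 and CCN2 followed each other (r = 0.69) and not ANKRD1 (r = -0.07 and 0.12), and YAP1 ran opposite to CCN2 (r = -0.78). These values describe 18 libraries in 6 groups that share their scaling factors, and they carry no test. Among genes whose mean reached 1 CPM, those most like ANKRD1 were RBM10 (r = 0.98), ZFP3 (0.97) and NAT10 (0.97). Those most like AXL were COQ10A (0.95), KHDRBS3 (0.94) and ZYX (0.94), and those most like CCN2 were CBX6, ENSG00000270977 and EHD4 (0.85 each).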

How the data were processed

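The authors deposited 1 table of raw read counts per gene for each library, made from trimmed reads (Trimmomatic) aligned with STAR and marked for duplicates with Picard. Per the file headers, counts were made with featureCounts 2.0.0 on primary alignments, reverse-stranded, against Ensembl release 96 (GRCh38). The output names in all 18 headers contain the word deduplicated, while the methods state only that duplicates were identified and quantified, so removal before counting is not stated outright, and it would lower the counts of abundant genes. Gene symbols were matched by gene ID.

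Counts were tested with the quasi-likelihood F test of edgeR 4.0.16 (R 4.3.3, TMM factors, robust dispersions), with 1 fit for the 9 WT libraries, 1 for the 9 PARP1 KO libraries, and 1 for all 18 libraries for the comparison of genotypes and the interactions (change in PARP1 KO minus change in WT). Genes with more than 10 counts in total in a fit were tested, with Benjamini-Hochberg adjustment over all of them. SEs were derived as |log2 fold change| over the root of the F statistic. On simulated counts, 181 of 200 genes changed 2-fold were called in the WT niraparib comparison (21907 genes). The genes changed were drawn only from those above a minimum mean count, so this recovery does not cover genes with few counts. No 2 libraries of a group agreed within sampling noise.

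Members and lists were chosen with earlier results of these data known. The text names all 10 genes, list genes called in a comparison, PARP1, and the 3 genes most correlated with each called member (log2 of CPM plus 0.5). Alternatives were the size factors of DESeq2 1.42.0, other filters, DESeq2, the replicate block, other libraries in the fit, adjusted p alone, and leaving out each library.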

Additional observations from a re-analysis of the deposited data

Results flagged for a closer look

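The change with niraparib differed between the genotypes, by adjusted p in the interaction test of edgeR, for 5 of the 10 genes, against 22.9% of all genes (8.88% called). The difference (PARP1 KO minus WT, log2) was -2.64 for ANKRD1, -1.60 for AXL, -0.37 for AJUBA and -0.30 for LATS2, all with the smaller or opposite change in PARP1 KO cells. For CCN1 it was 0.34, with the larger change in PARP1 KO cells. Among the genes of the wider pathway called in a comparison, it was -1.33 for GADD45A, -1.19 for F3, -1.05 for TGFB2, -0.80 for AMOT, -0.67 for AMOTL1 and -0.59 for ASAP1. With olaparib the change differed between the genotypes for AMOT (-0.62), where 0.657% of all genes were called. This call was lost in 12 of 18 alternative settings. Groups of 3 libraries were not examined for single libraries far from the others.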

How the results depend on the processing

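Counts of the 10 genes called (higher and lower together) were recomputed under each alternative. Dropping the 1.5-fold limit moved them to 5 with niraparib in WT cells, 2 with olaparib in WT cells, 5 for niraparib against olaparib in WT cells, 1 with niraparib and 1 with olaparib in PARP1 KO cells, 3 for niraparib against olaparib in PARP1 KO cells, 1 between the genotypes with DMSO and 5 in the niraparib interaction. The single call with olaparib in WT cells, AXL, fell to 0 calls with the size factors of DESeq2, with filterByExpr, with no filter, with DESeq2 and in the fit of all 18 libraries, and ran from 0 to 1 on leaving out 1 library at a time. The single call of niraparib against olaparib in PARP1 KO cells, CCN2, fell to 0 under the replicate block and ran from 0 to 1 on leaving out 1 library. The replicate block changed no other of the counts. Whether the replicate numbers pair the libraries was not settled. The deviations of libraries of the same number correlated at -0.56 to 0.58 over 18 pairs and those of different numbers at -0.61 to 0.65 over 36 pairs. Such overlapping ranges cannot exclude a pairing. For single genes, 1359 of 1470 recomputed values kept their direction and their side of an adjusted p of 0.05, 47 lost it, 14 gained it and 50 changed sign. Those 50 belong to 25 genes and comparisons that passed the threshold neither as reported nor under the alternative (lowest adjusted p 0.62), and 44 of them moved by at most 1 SE. The cause of these changes was not tested. ANKRD1 had 8 to 273 and AXL 28 to 329 counts per library.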

Other observations

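Upstream of YAP, 4 of the 12 Hippo core genes passed the adjusted p with niraparib in WT cells without reaching a 1.5-fold change, a share below the 38% of all genes past it, so the count is no result about the list. They are named here after their values were seen. LATS1, the partner kinase of LATS2, rose by 0.50 ± 0.05 (log2, SE, edgeR, adjusted p = 5.1e-08). SAV1, the scaffold of the upstream kinases, rose by 0.42 ± 0.05 (adjusted p = 5.6e-07). MAP4K4, a kinase that activates the LATS kinases, rose by 0.35 ± 0.05 (adjusted p = 1.3e-05). WWC1, the scaffold also known as KIBRA, fell from the DMSO level by 0.27 ± 0.04 (-0.27, adjusted p = 3.5e-05). The niraparib change differed between genotypes by adjusted p for the same 4 of the 12, against 22.9% of all genes, and since these genes were picked for their change in WT cells, which enters that difference, it is not independent of the choice. It stood at -0.58 for LATS1, -0.55 for SAV1, -0.23 for MAP4K4 and 0.25 for WWC1 (adjusted p of at most 0.023). MAP4K4 stood at 63.2 CPM with niraparib in WT and 63.7 CPM in PARP1 KO cells, and at 49.5 and 58.5 CPM with DMSO.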
